A study of Mus musculus with 6 samples.

Results

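Transcripts of 10 CXC and CX3C chemokine genes were compared between RENCA renal carcinoma cells that overexpressed Aqp1 and their vector controls. The genes were taken by symbol from a count matrix of 78298 genes and grouped by their known roles. Cxcl9, Cxcl10 and Cxcl11 are the ligands of the receptor CXCR3. Cxcl1, Cxcl2, Cxcl3 and Cxcl5 attract neutrophils, Cxcl12 is the homeostatic member, and Cxcl16 and Cx3cl1 are made as membrane-anchored proteins. A filter on low counts kept 15522 of all genes and 8 of these 10. Cxcl5 and Cxcl12 were not kept and do not enter the counts of members called.

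RENCA is an established mouse line of renal adenocarcinoma that arose in a BALB/c mouse. In the oe-AQP1 group (n = 3), the mouse Aqp1 coding sequence was delivered by lentivirus under the ubiquitin C promoter. The oe-NC group (n = 3) received the empty vector, and both groups underwent 14 days of selection in 2 μg/mL puromycin. RNA was harvested from dense cultures 2 weeks after transduction, with no other agent applied and no untransduced cells among the samples. The series' design text calls the samples of a group biological replicates, and all 6 carry the same batch label. Whether a group was a pool or a single clone, and whether its samples came from separate transductions, was not given in the sources used here. The tests therefore measure the spread between these samples only.

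Chemokines are small secreted proteins that guide leukocytes through receptors on the surface of the responding cell. CXCR3 ligands draw activated T cells and NK cells and are classical products of interferon signaling, whereas the ligands of CXCR2 recruit neutrophils and are classical targets of NF-κB. Cxcl12 acts through CXCR4 in cell retention and homing, and the membrane-anchored members can be released from the cell surface by ADAM proteases.

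The libraries of the oe-AQP1 samples, numbered 1 to 3, held 19758518, 21920899 and 20468701 counts. Those of the oe-NC samples held 19788720, 18385714 and 21396274. Aqp1 itself, a water channel, had 7713, 8545 and 7838 counts with the Aqp1 vector and 41, 25 and 45 with the empty vector. Every library therefore matched its label (log2FC = 7.70, FDR = 1.34e-10). Here log2FC is the log2 of the oe-AQP1 level over the oe-NC level, and FDR is the Benjamini-Hochberg adjusted p-value of limma-voom over all genes kept. CPM is the usual depth-scaled unit, a gene's count relative to its library's total after TMM scaling, and values after ± are SDs over the samples of a group. Genes with an FDR under 0.05 whose log2FC was also beyond 1 in either direction are called differentially expressed genes (DEGs).

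The library oe-NC sample 1 stood apart from the others of its group. A chi-square comparison of counts, where sampling noise alone gives about 1 per gene, gave 9.81 and 11.4 between this library and oe-NC samples 2 and 3. The other pairs within a group ranged from 1.71 to 2.04. Results for the chemokines are therefore given with and without this library.

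Markers of the renal epithelium were abundant in these cells. Of 11 such markers 9 were kept, led by Krt8, a keratin of simple epithelia, at 5969 to 8279 counts. Pax8, a renal lineage factor, had 3054 to 3630 counts, whereas the adhesion molecule Epcam was at 0 in all samples and the proximal tubule transporter Slc34a1 at 0 or 1. The summed level of this list was 884, 865 and 851 CPM in oe-AQP1 samples and 1150, 1060 and 1040 CPM in oe-NC samples. Of the 9 kept, 4 were lower and 0 higher in oe-AQP1, beside 16.6% and 16.0% of all genes kept. The lower genes were Cdh16, Krt8, Krt18 and Lrp2 (log2FC = -0.63, -0.41, -0.27 and -0.93). Pax2, another renal lineage factor, lay in the other direction (log2FC = 0.25, FDR = 0.124) and passed as higher without oe-NC sample 1 (log2FC = 0.41, FDR = 3.99e-06). In the same fit Cubn, an endocytic receptor of the proximal tubule, passed as lower (log2FC = -0.38, FDR = 0.0115, against -0.32 and 0.0511 with all samples). The part of this shift in the chemokine results was not tested.

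Markers of leukocytes, which are major chemokine sources in tissue, were mostly near 0. None of 6 neutrophil markers was kept, their summed level was 0.273 to 0.506 CPM, S100a9 was at 0 in every sample and the most abundant, Elane, had 1 to 8 counts. None of 6 T and NK cell markers was kept either, with a summed level of 0.0 to 0.273 CPM and 0 to 2 counts for Cd3e, the most abundant over all samples. Cd3g reached 3 counts in oe-NC sample 2. Of 9 macrophage markers 4 were kept, led by the lysosomal protein Cd68 at 576 to 777 counts. Adgre1 and Tyrobp were at 0 in all samples, and the pan-leukocyte gene Ptprc had 0 to 3 counts. Summed macrophage markers were 60.4, 62.1 and 59.0 CPM in oe-AQP1 and 69.5, 71.3 and 69.3 CPM in oe-NC samples. Of the 4 kept, 2 were lower in oe-AQP1, beside 16.6% of all genes kept, namely Csf1r and Lyz2 (log2FC = -1.51 and -0.52). Cd68 lay in the other direction, with every oe-AQP1 sample above every oe-NC sample in CPM, but did not pass the test (log2FC = 0.15, FDR = 0.0764). Of 3 B cell markers only Cd79a was kept (14 to 26 counts, summed list 0.728 to 1.45 CPM). Of 5 endothelial markers only Pecam1 was kept (13 to 35 counts, summed list 0.93 to 1.73 CPM), with Kdr and Emcn at 0. Of 6 fibroblast markers 2 were kept. They were led by Col1a1 at 246 to 509 counts, which was lower in oe-AQP1 (log2FC = -0.73), 1 of 2 beside 16.6% of all genes kept. Summed fibroblast markers were 13.2, 12.6 and 13.8 CPM in oe-AQP1 against 26.6, 21.0 and 18.1 CPM in oe-NC samples.

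Among the 8 chemokine genes kept, 7 passed an FDR of 0.05 with a higher level in oe-AQP1, beside 16.0% of all genes kept, and all but Cx3cl1 were among these 7. Of the members 0 were lower, beside 16.6% of all genes. All 8 log2FC values were positive (0.09 to 5.19), also with edgeR and DESeq2. No threshold on p could therefore have called a member lower. The 3 CXCR3 ligands and Cxcl1 and Cxcl2 were DEGs, 5 of 8, beside 4.39% of all genes in this direction and 0.844% in the other. In 7 of the 8, every oe-AQP1 sample exceeded every oe-NC sample in CPM, as did 23.5% of all genes. Without oe-NC sample 1 the members' counts were again 7 higher and 5 DEGs, beside 19.4% higher and 4.53% higher DEGs over all genes in that fit. The count higher fell to 6 with DESeq2, through Cxcl3, beside 12.7% of all genes in that fit. For the same gene it was 6 without oe-AQP1 sample 1, oe-AQP1 sample 2 or oe-NC sample 3, beside 12.1, 11.7 and 13.7%. The median log2FC was 1.91 over the 8 members and 0.00 over all genes. In bulk samples, a change in the number of expressing cells and a change in RNA per cell cannot be told apart.

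The CXCR3 ligands rose most. Cxcl10, which attracts activated T cells and NK cells, had 9896, 10839 and 10098 counts in oe-AQP1 samples and 270, 244 and 286 counts in oe-NC samples. The groups were far apart, and within each group the 3 samples lay close together. Its level went from 13.5 ± 0.218 to 495 ± 4.97 CPM (n = 3 each), a 36.6-fold increase (log2FC = 5.19, SE 0.05, 95% interval 5.07 to 5.31, FDR = 1.94e-12). By log2FC it was number 17 of the 15522 genes kept. By level per kilobase of exon it moved from place 6099 to place 133 of the 15499 kept genes with an annotated length. Its log2FC was 5.20 without oe-NC sample 1.

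Cxcl11, the CXCR3 ligand with the highest affinity for the receptor, had 407, 409 and 408 counts in oe-AQP1 and 26, 15 and 26 counts in oe-NC samples. All oe-AQP1 samples were high, and oe-NC sample 2 was the lowest of all. The level rose from 1.12 ± 0.266 to 19.7 ± 1.0 CPM, 17.3-fold (log2FC = 4.12, SE 0.20, 95% interval 3.67 to 4.56, FDR = 1.27e-07), and the log2FC was 4.24 without oe-NC sample 1. The deposited annotation classes this gene as protein_coding_LoF, a coding gene whose copy in the reference genome is not translated into full protein. The reference genome is from another mouse strain than RENCA, and protein was not measured in these samples. The exons of Cxcl11 share 1582 bases with the pseudogene Gm2673 on the opposite strand, which had at most 1.07 expected counts in any sample. Expected counts of Cxcl11 and Cxcl9 were not whole in every sample, so their values carry some uncertainty from how reads were divided.

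Cxcl9, which acts on the same receptor and is classically induced by interferon-γ, had 314, 364 and 381 counts in oe-AQP1 against 35, 40 and 39 counts in oe-NC samples. The groups did not overlap. The change from 1.93 ± 0.222 to 17.0 ± 1.38 CPM was 8.74-fold (log2FC = 3.13, SE 0.16, 95% interval 2.77 to 3.48, FDR = 2.09e-07). Without oe-NC sample 1 the log2FC was 3.08. The 3 ligands of CXCR3 thus differed in the size of their increase, and their 95% intervals did not overlap.

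Of the 4 neutrophil-attracting members 3 were kept, and Cxcl5 was too low for the test. All 3 were higher in oe-AQP1, beside 16.0% of all genes, and each rose by less than any CXCR3 ligand. The call for Cxcl3 among them was lost in some alternative fits, given below. Cxcl1, a ligand of CXCR2, had 277, 308 and 315 counts in oe-AQP1 and 51, 52 and 79 counts in oe-NC samples. All oe-AQP1 samples were higher, and oe-NC sample 3 was the highest control. Its level rose from 3.05 ± 0.582 to 14.4 ± 0.758 CPM, 4.72-fold (log2FC = 2.24, SE 0.14, 95% interval 1.93 to 2.55, FDR = 1.05e-06), and without oe-NC sample 1 the log2FC was 2.13.

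Cxcl2, a close relative that acts on the same receptor, had 128, 106 and 121 counts in oe-AQP1 and 35, 34 and 43 counts in oe-NC samples. The groups were again separate, with oe-AQP1 sample 2 the lowest of its group. The increase from 1.89 ± 0.119 to 5.73 ± 0.838 CPM was 2.97-fold (log2FC = 1.57, SE 0.18, 95% interval 1.17 to 1.97, FDR = 0.000111). The log2FC was 1.53 without oe-NC sample 1.

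Cxcl3, the third CXCR2 ligand kept, had far fewer counts, with 43, 48 and 36 in oe-AQP1 and 24, 25 and 20 in oe-NC samples. Each oe-AQP1 sample was still above each oe-NC sample, but oe-AQP1 sample 3 came near the controls. The level was 1.18 ± 0.219 CPM in oe-NC and 2.04 ± 0.247 CPM in oe-AQP1, 1.74-fold higher (log2FC = 0.80, SE 0.22, 95% interval 0.31 to 1.29, FDR = 0.0195), and 0.84 on the log2 scale without oe-NC sample 1 (FDR = 0.0262). The call was lost without oe-AQP1 sample 1 (log2FC = 0.75, FDR = 0.0637), without oe-AQP1 sample 2 (log2FC = 0.74, FDR = 0.0699) and without oe-NC sample 3 (log2FC = 0.64, FDR = 0.0795). It was also lost with DESeq2 (log2FC = 0.80, FDR = 0.0659).

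Cxcl5, the neutrophil attractant of epithelial cells, had 7, 8 and 2 counts in oe-AQP1 and 3, 8 and 8 counts in oe-NC samples. The groups overlapped, and each held a sample with at most 3 counts. Tested without the low-count filter, its log2FC was -0.31 (95% interval -1.53 to 0.91, FDR = 0.767), an interval too wide at this depth to tell its behavior from that of Cxcl3. Over the 3 neutrophil-attracting genes kept the median log2FC was 1.57, against 4.12 over the 3 CXCR3 ligands. The lowest 95% bound among the CXCR3 ligands, 2.77 for Cxcl9, lay above the highest bound among the neutrophil-attracting genes, 2.55 for Cxcl1.

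**Figure D1:**
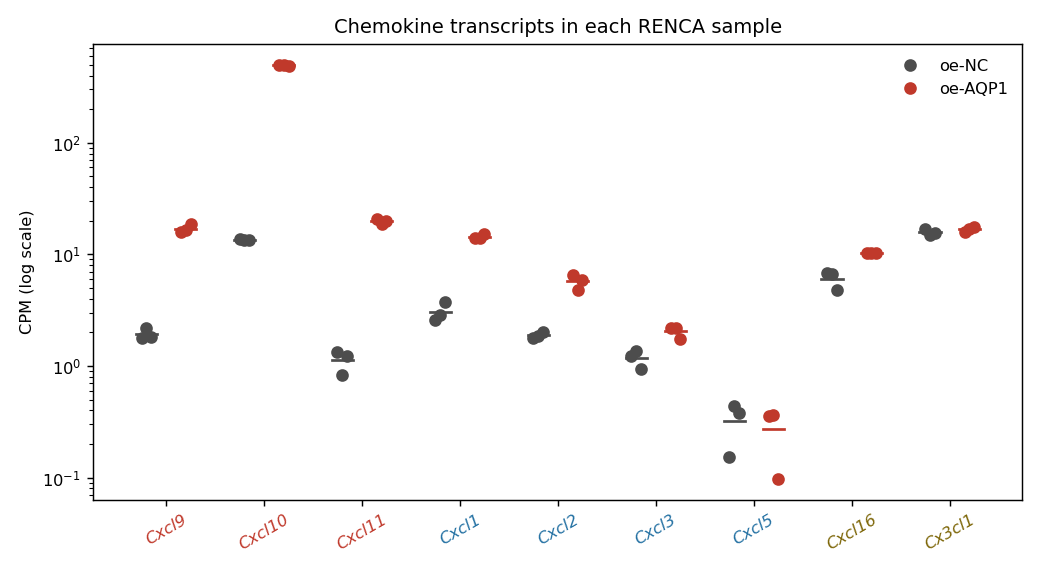
CPM on a log axis of 9 chemokine genes in each RENCA sample, with a point for each oe-NC (grey) and oe-AQP1 (red) sample and a line at the group mean. Cxcl12 had 0 counts in every sample and is not drawn. Gene names are colored by role (red, CXCR3 ligands; blue, neutrophil-attracting; brown, membrane-anchored), and the groups overlap for Cxcl5 and Cx3cl1 only.

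Cxcl10 and Cxcl1, the genes with the largest change in their classes, were compared inside each sample. Their ratio describes this pair and not the classes, since Cxcl9 and Cxcl11 lay closer to Cxcl1 (log2FC = 3.13 and 4.12 against 2.24). Its difference between groups restates the log2FC values of these genes (5.19 and 2.24). Because members were chosen with earlier results known, the comparison is a description and adds no separate support. The log2 ratio of their CPM was 5.16, 5.14 and 5.0 in oe-AQP1 samples and 2.40, 2.23 and 1.86 in oe-NC samples. All oe-AQP1 samples were above all oe-NC samples. The mean ratio was 5.10 ± 0.08 in oe-AQP1 and 2.16 ± 0.28 in oe-NC, a difference of 2.94 on the log2 scale or 7.65-fold (exact two-sided permutation test, p = 0.1, the smallest that 3 against 3 samples allow). The difference was 3.06 without oe-NC sample 1.

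The homeostatic member Cxcl12 had 0 counts in all 6 samples. A count of 0 allows a level of up to 0.136 to 0.164 CPM, computed as 3 counts in each library and covering counting error only. No fold change is given for it, and no ratio of Cxcl10 to Cxcl12 could be formed.

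Of the membrane-anchored members, Cxcl16 was higher in oe-AQP1, and Cx3cl1 did not pass the test. Cxcl16, a ligand of CXCR6 that also binds oxidized lipoprotein, had 202, 224 and 212 counts in oe-AQP1 and 133, 121 and 101 counts in oe-NC samples. The groups did not overlap, and oe-NC sample 3 was the lowest. Its level rose from 6.04 ± 1.13 to 10.2 ± 0.0648 CPM, 1.73-fold (log2FC = 0.79, SE 0.13, 95% interval 0.50 to 1.08, FDR = 0.00121), and its log2FC was 0.89 without oe-NC sample 1. Its exons share 2213 bases with Med11 and 2132 bases with Zmynd15 on the opposite strand. Its expected counts were not whole numbers in every sample, and the strand setting of the counting was not given in the sources used here. Reads of these genes therefore cannot be fully told apart.

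Cx3cl1, the only CX3C chemokine and a ligand that also serves as an adhesion molecule, had 313, 374 and 361 counts in oe-AQP1 and 329, 275 and 332 counts in oe-NC samples. The groups overlapped. The level was 15.8 ± 0.879 CPM in oe-NC and 16.8 ± 0.883 CPM in oe-AQP1 (log2FC = 0.09, SE 0.07, 95% interval -0.08 to 0.26, FDR = 0.40). The interval holds increases of up to 1.19-fold. Without oe-NC sample 1 the log2FC was 0.13 (FDR = 0.204).

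**Figure D2:**
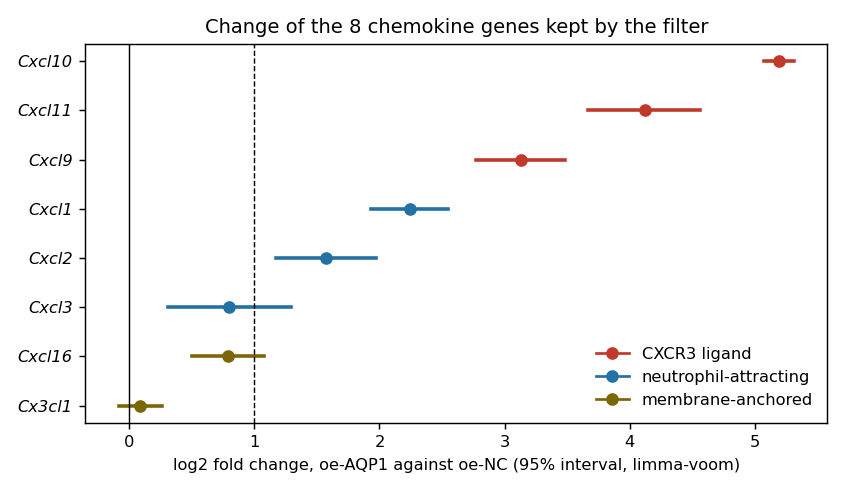
Log2FC of the 8 chemokine genes kept by the filter, with points for the limma-voom estimate and bars for its 95% interval. The solid line marks no change and the dashed line a log2FC of 1. The CXCR3 ligands (red) lie between 3.13 and 5.19, the neutrophil-attracting genes (blue) between 0.80 and 2.24, and the membrane-anchored genes (brown) at 0.79 and 0.09.

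Levels were compared between genes as CPM per kilobase of annotated exon. In oe-NC cells Cxcl10 ranked highest at 6.0 ± 0.0966, followed by Cx3cl1 at 3.98 ± 0.221, Cxcl1 at 1.62 ± 0.309, Cxcl16 at 1.18 ± 0.221 and Cxcl2 at 0.912 ± 0.0577. Cxcl9 came next at 0.64 ± 0.0734, then Cxcl3 at 0.336 ± 0.0625, Cxcl11 at 0.296 ± 0.0701 and Cxcl5 at 0.17 ± 0.079. The sample ranges of Cxcl16 and Cxcl2, of Cxcl3 and Cxcl11, and of Cxcl11 and Cxcl5 overlapped, so that their order in control cells is not resolved.

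In oe-AQP1 cells Cxcl10 stood at 220 ± 2.21 CPM per kilobase, far above Cxcl1 at 7.68 ± 0.403, Cxcl9 at 5.62 ± 0.456 and Cxcl11 at 5.19 ± 0.264. Below these lay Cx3cl1 at 4.23 ± 0.222, Cxcl2 at 2.77 ± 0.405, Cxcl16 at 2.0 ± 0.0127, Cxcl3 at 0.582 ± 0.0706 and Cxcl5 at 0.143 ± 0.0797. Cxcl9 and Cxcl11 overlapped, and the other neighbors in this order did not. Cxcl9 and Cxcl11 had thus moved from below Cx3cl1, Cxcl1, Cxcl16 and Cxcl2 to above all of these but Cxcl1.

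The summed level of the 10 genes rose from 15.1 ± 0.153 to 248 ± 2.08 CPM per kilobase. Cxcl10 made up 40.0, 39.6 and 39.3% of this sum in oe-NC samples and 88.8, 88.9 and 88.1% in oe-AQP1 samples. It was thus the main transcript of the family in the oe-AQP1 samples. The share of the neutrophil-attracting genes was 20.1 ± 2.5% in oe-NC and 4.51 ± 0.189% in oe-AQP1, although 3 of these genes had higher levels there. The share of Cx3cl1 was 26.3 ± 1.25% and 1.71 ± 0.104%, while its own level did not pass the test. Exon lengths included every annotated transcript of a gene, some of which these cells may not use.

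Other ligands of the CXC family were not kept by the filter. Of 6 examined, Cxcl13, Cxcl14, Cxcl15 and Pf4 had 0 counts in all samples, Cxcl17 had 0 or 1, and Ppbp, a platelet chemokine, had 0 to 5.

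Receptors were nearly absent. Of 9 receptor genes, Cxcr1, Cxcr3, Cxcr4 and Ackr1 had 0 counts in all samples, and Cxcr2, Cxcr5, Cxcr6 and Cx3cr1 stayed under 10 counts in each. The receptor of Cxcl9, Cxcl10 and Cxcl11 was thus not detectable at this depth. Only Ackr3, a scavenging receptor for Cxcl11 and Cxcl12, was kept, with 52, 64 and 72 counts in oe-AQP1 and 80, 85 and 96 counts in oe-NC samples. The groups did not overlap in CPM, and the level was lower in oe-AQP1 (log2FC = -0.55, SE 0.15, FDR = 0.0169). This call was lost with DESeq2 and without oe-AQP1 sample 1, oe-AQP1 sample 2 or oe-NC sample 2, where the FDR reached 0.0731.

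Of 5 genes for enzymes that release or trim chemokines, 3 were kept and 2 were lower in oe-AQP1, beside 16.6% of all genes, with a median log2FC of -0.25 beside 0.00 over all genes. Adam10, a sheddase of Cxcl16 and Cx3cl1 and the gene with the highest CPM of this list, had 1752, 2035 and 1849 counts in oe-AQP1 against 1985, 2060 and 2307 in oe-NC samples (log2FC = -0.25, SE 0.05, FDR = 0.00343). Adam17, a sheddase of Cx3cl1, had 1413, 1650 and 1527 counts against 1880, 1597 and 1877 (log2FC = -0.30, SE 0.05, FDR = 0.00125). Both differences were smaller in size than those of the chemokines that passed the test. The log2FC of Cx3cl1, which did not pass, was smaller in size than either (0.09). Mmp2 had a log2FC of 0.04 (FDR = 0.755), the protease Dpp4, which trims CXCR3 ligands, had 1 to 8 counts, and Mmp9 had 2 to 6.

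All 14 genes of a list for the interferon route were kept, and 8 were higher and 2 lower in oe-AQP1, beside 16.0% higher and 16.6% lower over all genes, so that the lower count is near the background. The list held 5 higher DEGs, Ifnb1 among them, beside 4.39% of all genes, and its median log2FC was 0.32 beside 0.00. Ifnb1, the gene of interferon-β, had 264, 288 and 277 counts in oe-AQP1 and 3, 6 and 5 counts in oe-NC samples (log2FC = 5.72, SE 0.30, FDR = 2.6e-07). The filter kept Ifnb1 only through the oe-AQP1 group, and its log2FC rests on few control counts. With at least 10 counts in every sample, which removes Ifnb1, 7 genes of the list were higher, beside 17.1% of all genes in that fit. Irf7, a transcription factor that amplifies type I interferon and the list's gene with the highest CPM, had 38273, 42472 and 38940 counts against 10018, 8815 and 10261 (log2FC = 1.97, FDR = 3.45e-11). Both were high in every oe-AQP1 sample. The signal transducer Stat2 (log2FC = 1.97) and the factor Irf1 (log2FC = 1.43) were also DEGs. Irf9, a DNA-binding partner of Stat2, and the receptor genes Ifngr2 and Ifnar2 rose by less (log2FC = 0.68, 0.37 and 0.27). The receptor gene Ifngr1 and the kinase gene Jak1 were slightly lower (log2FC = -0.21 and -0.11). The call for Jak1 was lost with edgeR, with DESeq2, with the replicate number as a block, with a stricter filter of 10 counts per sample and when any sample but oe-NC sample 1 was left out (FDR up to 0.184).

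Of 14 genes of the NF-κB route 12 were kept, and 7 were higher and 1 lower in oe-AQP1, beside 16.0% and 16.6% of all genes. Of these genes 2 were higher DEGs, beside 4.39% of all genes, and the median log2FC was 0.32 beside 0.00. Tnf, an inducer of NF-κB, had 318, 371 and 354 counts in oe-AQP1 against 87, 83 and 100 in oe-NC samples (log2FC = 1.87, SE 0.10, FDR = 2.14e-07). Nfkbia, an inhibitor that NF-κB itself induces, had 1579, 1775 and 1610 counts against 757, 599 and 802 (log2FC = 1.13, SE 0.06, FDR = 3.28e-07). The groups did not overlap for either gene. The feedback inhibitor Tnfaip3 (log2FC = 0.93), the subunits Relb, Nfkb2 and Rel (log2FC = 0.63, 0.58 and 0.19) and the cofactor Nfkbiz (log2FC = 0.44) were higher, and the receptor gene Il1r1 was lower (log2FC = -0.40). The subunit gene Nfkb1, which had the highest CPM of the list, had a log2FC of -0.05 (FDR = 0.491). The call for Rel was lost with DESeq2, with no low-count filter, without any 1 of the oe-AQP1 samples and without oe-NC sample 3, where its FDR reached 0.126. Without oe-NC sample 1, the subunit gene Rela (log2FC = 0.31, FDR = 2.22e-07, against 0.20 and 0.0696 with it) and Bcl3 (log2FC = 0.29, FDR = 0.0205, against 0.15 and 0.354) also passed, which made 9 higher, beside 19.4% of all genes in that fit. Il1a and Il1b were not kept, at no more than 8 counts in any sample.

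Chemokine mRNAs such as Cxcl1 carry AU-rich elements through which their decay is controlled. Of 7 genes of this decay all were kept, and Zfp36 (log2FC = 0.66, FDR = 0.000419) and Zfp36l1 (log2FC = 0.33, FDR = 0.00847), which both promote decay, were higher in oe-AQP1, 2 of 7 beside 16.0% of all genes. The median log2FC was 0.11 beside 0.00, and Zfp36l2, with the highest mean CPM over all samples though below Hnrnpd in oe-NC, had a log2FC of 0.11 (FDR = 0.403). Without oe-NC sample 1, 4 of the 7 were higher, beside 19.4% of all genes in that fit, among them Zfp36l2 and Khsrp (log2FC = 0.24 and 0.11).

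The CXCR3 ligands and the neutrophil-attracting genes share chromosome 5, in clusters of opposite orientation. On GRCm39, by the GENCODE M39 annotation, Cxcl5 (chr5:90907186-90909483), Cxcl3 (chr5:90933962-90937459), Cxcl1 (chr5:91039094-91040974) and Cxcl2 (chr5:91051730-91053797) lie on the plus strand. Cxcl9 (chr5:92469206-92475945), Cxcl10 (chr5:92494497-92496748) and Cxcl11 (chr5:92507403-92513344) lie on the minus strand, beyond a gap of 1415.4 kb after Cxcl2. The remaining members lie apart, Cxcl12 on chromosome 6 (chr6:117144945-117158328), Cx3cl1 on chromosome 8 (chr8:95498637-95509055) and Cxcl16 on chromosome 11 (chr11:70344517-70352620).

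Between Cxcl5 and Cxcl11, a span of 1606159 bases, 12 other genes were kept. In oe-AQP1, 5 of them were higher, beside 16.0% of all genes, and 2 were lower, a share near the 16.6% of all genes. The median log2FC was -0.01 beside 0.00 over all genes. Btc, a ligand of the EGF receptor, had 27, 26 and 33 counts in oe-AQP1 and 5, 7 and 6 counts in oe-NC samples (log2FC = 2.10, SE 0.31, FDR = 0.000613). Both groups held few reads for this gene, but they did not overlap. The filter kept Btc only through the oe-AQP1 group, so its place among the 5 higher genes depended on its higher level there. Art3, an ADP-ribosyltransferase gene on the opposite strand that spans Cxcl10 and Cxcl11, had 1623, 1839 and 1653 counts against 776, 725 and 849 (log2FC = 1.05, SE 0.04, FDR = 4.54e-08). Its exons share 133 bases with those of Cxcl10, and what these bases contribute to either gene was not tested. G3bp2, Rchy1 and Sdad1 were also higher (log2FC = 0.61, 0.24 and 0.16), and Cdkl2 and Naaa were lower (log2FC = -0.65 and -0.35). Mthfd2l, Gm19619, Parm1, Thap6 and Uso1 did not pass the test.

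**Figure D3:**
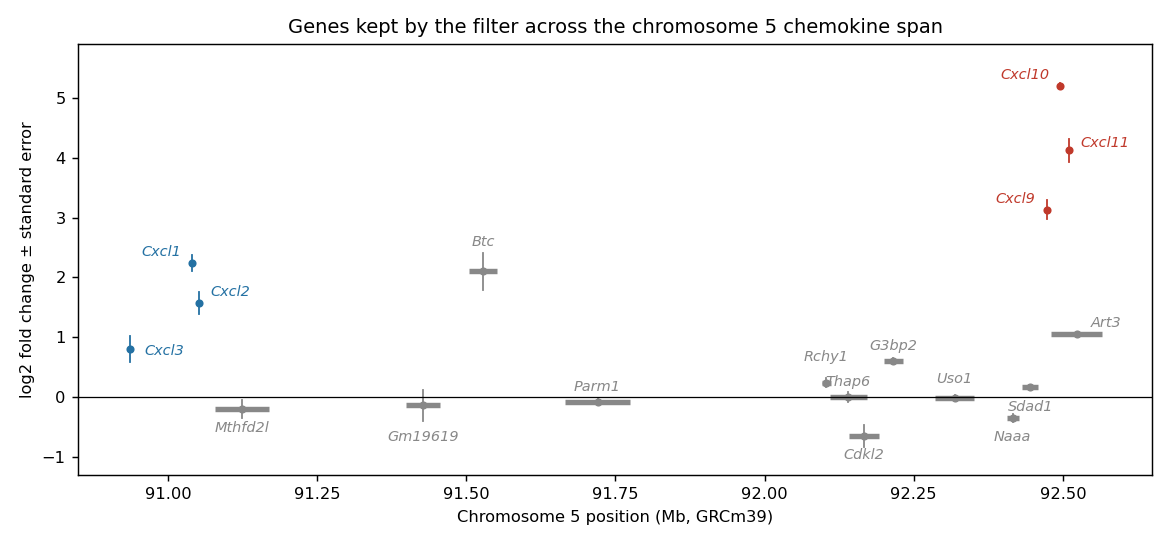
Log2 fold change (points, with bars of 1 standard error) of the genes kept by the filter at their position on chromosome 5 of GRCm39, in Mb, with horizontal bars as long as each gene. The CXCR3 ligands (red) and neutrophil-attracting genes (blue) sit at opposite ends of the span. Among the other genes drawn (grey), Btc, between the classes, at 2.10 and Art3, which spans Cxcl10 and Cxcl11, at 1.05 exceed a log2FC of 1.

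Promoter sequences were searched for letters of interferon and NF-κB motifs, because members of both classes rose together. RefSeq promoters on GRCm38.p6, which run from 250 bases before to 50 after the start, were matched for 7 of the 10 members. Cxcl5, Cxcl11 and Cxcl16 were not matched. The searched motifs, on both strands, were the ISRE core (GAAA, any 2 bases, GAAA), the GAS motif (TTCNNNGAA) and the κB consensus by name. Among 32851 promoters of the same length, 3.44% held the ISRE core, 8.30% the GAS motif and 8.46% the κB consensus. The κB consensus was found in Cxcl1, Cxcl2, Cxcl3 and Cxcl10 and the ISRE core in Cxcl10, whereas none of the 3 was found in Cxcl9, Cxcl12 or Cx3cl1. A match is a description of letters only, and binding was not measured. A missing match covers only these patterns within the 300 bases searched, and variant or more distant sites were not searched.

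The promoter of Cxcl10, the gene with the largest change, is shown beside those of Cxcl1, Cxcl2 and Cxcl3, with matched letters in capitals. In Cxcl10 (chr5:92348840-92349139, minus strand) the ISRE core begins 213 bases before the start, and κB letters begin 159 and 104 bases before it. Cxcl1 (chr5:90890995-90891294), Cxcl2 (chr5:90903649-90903948) and Cxcl3 (chr5:90785851-90786150), all on the plus strand, hold the same 11 letters, GGGAATTTCCC, beginning 71, 97 and 73 bases before the start. All coordinates of these promoters are on GRCm38.p6, and each sequence reads 5′ to 3′.
Cxcl10: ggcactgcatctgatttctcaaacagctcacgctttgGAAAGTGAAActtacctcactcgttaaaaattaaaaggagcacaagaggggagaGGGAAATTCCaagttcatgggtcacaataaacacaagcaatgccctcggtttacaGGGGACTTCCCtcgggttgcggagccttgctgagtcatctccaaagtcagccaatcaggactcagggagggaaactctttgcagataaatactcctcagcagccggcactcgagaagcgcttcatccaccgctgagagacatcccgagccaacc
Cxcl1: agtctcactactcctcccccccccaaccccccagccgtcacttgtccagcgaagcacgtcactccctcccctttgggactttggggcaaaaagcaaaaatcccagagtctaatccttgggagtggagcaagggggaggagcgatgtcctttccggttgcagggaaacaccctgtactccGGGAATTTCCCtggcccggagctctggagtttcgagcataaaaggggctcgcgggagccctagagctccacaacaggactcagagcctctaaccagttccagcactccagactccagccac
Cxcl2: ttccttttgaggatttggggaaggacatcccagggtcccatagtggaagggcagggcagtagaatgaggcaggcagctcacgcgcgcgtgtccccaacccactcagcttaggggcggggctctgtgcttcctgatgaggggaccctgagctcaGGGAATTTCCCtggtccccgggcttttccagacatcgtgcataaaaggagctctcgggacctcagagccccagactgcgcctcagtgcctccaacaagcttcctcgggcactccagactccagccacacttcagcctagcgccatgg
Cxcl3: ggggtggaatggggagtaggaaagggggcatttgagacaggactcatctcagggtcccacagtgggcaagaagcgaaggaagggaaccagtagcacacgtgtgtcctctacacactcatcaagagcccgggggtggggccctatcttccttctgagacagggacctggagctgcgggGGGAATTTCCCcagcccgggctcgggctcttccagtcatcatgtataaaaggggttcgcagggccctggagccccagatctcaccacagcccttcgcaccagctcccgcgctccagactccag

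Genes whose pattern over the 6 samples was most like that of Cxcl10 and Cxcl1 were found by Pearson's r of log2 CPM among 9682 genes with a mean of at least 10 CPM. For Cxcl10 these included H2-T22 and Ifit3, each with r = 0.9999, and for Cxcl1 they were Zfp160, Zfp945 and Vcpip1 (r = 0.9998, 0.9996 and 0.9995). The 6 samples fall into separate groups, so such values mostly reflect the split between oe-AQP1 and oe-NC and are given as a description. The changes of the genes differed in size, with a log2FC of 4.85 for Ifit3 and 0.34 for Zfp160.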

How the data were processed

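Total RNA of 6 RENCA samples was sequenced paired-end from TruSeq libraries. The authors deposited expected counts per gene, which need not be whole (31.1% of nonzero values were not), without scaling between samples. The study's methods name GRCm39 as the reference, whereas the submitters' processing notes name GRCm38 and mm10, with fastp, HISAT2, featureCounts and Subread. Gene positions and exon lengths were taken by gene identifier from GENCODE M39, which held 78168 of the 78298 genes. The authors' group means and GO and KEGG columns were not used.

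For the values given here, expected counts were rounded and filtered with edgeR's filterByExpr by group (15522 genes kept), and analysed in R 4.3.3 (edgeR 4.0.16, limma 3.58.1). TMM scaling, limma-voom and the DEG thresholds follow the study's methods. Benjamini-Hochberg adjustment was over all genes kept. The study's removal of interferon-stimulated genes was not applied. The alternatives tried included DESeq2 1.42.0, the quasi-likelihood test of edgeR, other scalings and filters, a block for the replicate number, and leaving out each sample.

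Members and lists were chosen with earlier results of these data known, so they are described by counts and medians and not tested as sets. Genes named were Aqp1, the members, genes of each list that passed the test with its most abundant gene, genes kept between members on a chromosome, and the 3 genes most like Cxcl10 and Cxcl1. A gene that this rule selects is not reported here. List and marker genes named beyond this rule, such as genes at 0 counts, were chosen after their values were seen. Scripts were tested on simulated counts.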

Additional observations from a re-analysis of the deposited data

How the results depend on the processing

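Of 104 log2FC values of members under alternative settings, 100 kept their direction and their side of the FDR threshold. The exceptions all concerned Cxcl3, which lost its call by DESeq2 (log2FC = 0.80, FDR = 0.0659) and in 3 fits that left out a sample (log2FC = 0.75, 0.74 and 0.64). Over all fits that left out a sample its log2FC was 0.64 to 0.91. The cause was not tested for DESeq2, and fewer samples entered the other fits. Of 156 counts over the other lists, 65 were 0 both ways and say nothing of stability. Of the other 91, 77 stayed within 1.5 times and 14 moved, among them Ackr3 among receptors, Jak1 in the interferon route and the decay genes without oe-NC sample 1. With the replicate block, 7 members were higher and 5 were DEGs as without it, and the block changed no call among members, while Jak1 lost its call and Rela gained it. Samples with the same number did not deviate together (r = 0.00911, -0.0044 and -0.0677), so the numbers do not pair them. The number of DEGs over all genes depended on the filter, with 681 higher and 131 lower at the filter used, 932 and 204 with none, and 416 and 66 with at least 10 counts in every sample. A planned ratio of Cxcl10 to Cxcl12 was not run, since Cxcl12 had 0 counts. Depth limits Cxcl5, Cxcl12 and the receptors, for which small differences were not detectable.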
